A study of Mus musculus with 2 samples.

Results

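The genes described here encode the Polycomb complexes and the enzymes that add or remove methyl groups on histone lysines. They were chosen by gene symbol, although with earlier results of these data known. Included are the Kdm demethylases, the Kmt2, Setd and Setdb families, and named single methyltransferases. The rest are the subunits of Polycomb repressive complexes 1 and 2 (PRC1 and PRC2) and the Cbx readers. Probesets assigned to exactly 1 gene measured 64 such genes among 19938 genes in all, and a gene with several probesets was given their mean. Cbx6 and Suv39h1 had no probeset of their own and were not analysed here. Expression was measured in i-OSKM-ESC, mouse embryonic stem cells of strain 129 engineered from the KH2 line to switch on 4 transcription factors in response to the antibiotic doxycycline: Oct4, Klf4, c-Myc and a Sox2 that carries an epitope tag. Of the arrays, 1 held RNA of cells given 4 µg/mL doxycycline and collected 24 hours later (plus doxycycline), and 1 held RNA of cells refed without the drug (no doxycycline). Both carry the inducible genes, and the parental line with doxycycline was not analysed here, so effects of the drug and of the factors cannot be told apart. With 1 array per group there is no replicate error and no test, and every difference below compares 2 arrays, plus minus no doxycycline, on the log2 scale.

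PRC2 methylates the lysine of histone H3 called H3K27, and PRC1 ubiquitinates histone H2A and compacts chromatin; together they hold developmental genes silent in embryonic stem cells. Methylation of H3K4 by the Kmt2 and Setd1 enzymes marks promoters and enhancers, whereas H3K9 methylation by Setdb1, Ehmt1, Ehmt2 and the Suv39h enzymes marks silent chromatin, where the HP1 proteins (Cbx1, Cbx3 and Cbx5) bind it. The Kdm enzymes remove these marks, and demethylases of H3K9 are known for keeping pluripotency genes accessible in mouse embryonic stem cells.

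Most members had slightly lower levels on the plus doxycycline array, and none differed 2-fold. A gene passed the expression filter when its higher value reached 6.48, the median of all values, and 61 of the 64 members passed, as did 11191 genes in all. Of the 61, 0 were higher by 2-fold or more and 0 lower by as much, against 0.92% and 0.768% of all genes passing. At 1.5-fold, 0 members were higher (3.24% of all genes) and 3 were lower (3.8% of all genes), namely Jarid2, Phc1 and Setd1b, which is a share near the background. The counts lie further from the background for small differences. Lower by at least 0.3 were 16 members, or 26.2%, against 15.5% of all genes. Higher by at least 0.3 was 1 member, Setd3, or 1.64%, against 11.3% of all genes. The higher count depends on the processing. With the trend with expression removed, Setd7 (0.37), Setd6 (0.32) and Kdm1b (0.32) also reached 0.3, while Ehmt2 (-0.299) no longer reached -0.3. After quantile normalization, Setd7 (0.36) and Kdm1b (0.32) reached 0.3 as well. The shares of all genes at 0.3 were not counted under these settings. Differences below 0 were found for 45 of the 61 members, against 55.5% of all genes passing. The median difference was -0.14 over all 64 members and 0.01 over all 19938 genes. Among genes passing the filter it was -0.14 for members and -0.03 for all genes. These differences are of the size of the spread over genes, whose robust SD was 0.246, and that spread is not an error between cultures.

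**Figure D1:**
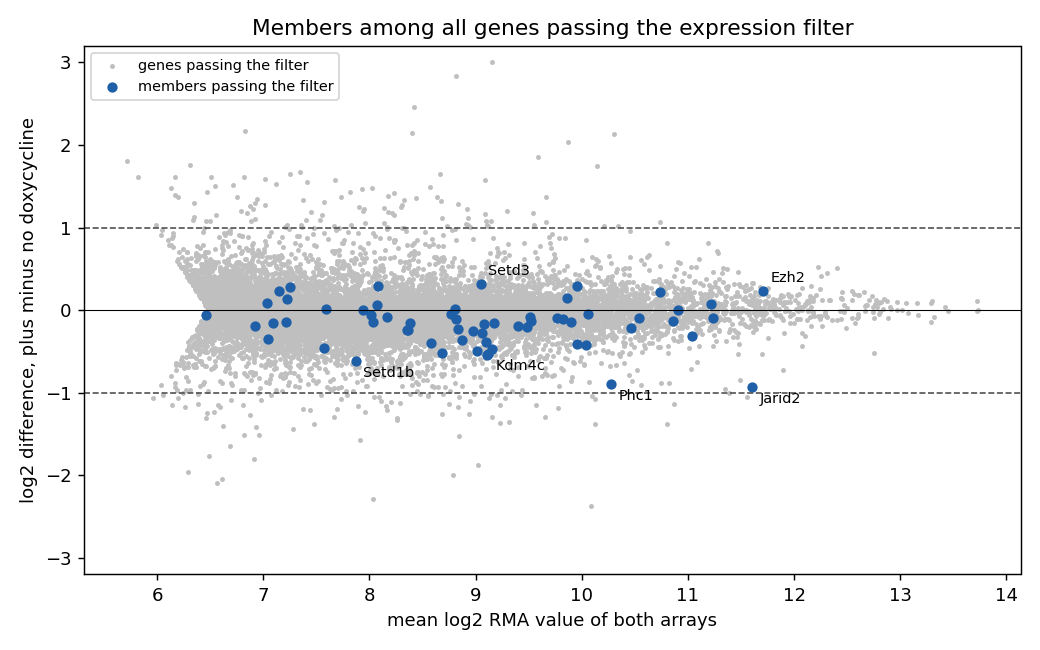
Each grey point is 1 of the 11191 genes passing the expression filter and each blue point 1 of the 61 members, with the mean log2 RMA value of both arrays on the x axis and the log2 difference (plus minus no doxycycline) on the y axis. The dashed lines mark a 2-fold difference, which no member reaches, with Jarid2 at -0.93 and Phc1 at -0.90 the closest.

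The induced genes and the cell type markers were read on the same arrays. The levels of Pou5f1 (0.41), Klf4 (0.43) and Myc (0.35) differed upward and that of Sox2 (-1.01) downward. The factors thus do not settle the array labels, on which all directions rest. Klf4 and Myc were added after values were seen. All 10 embryonic stem cell markers lay above the filter on both arrays, with a mean level of 11.18 with and 11.65 without doxycycline. By at least 0.3, 7 were lower and 1 higher, against 15.5% and 11.3% of all genes passing. At 1.5-fold, 4 were lower and 0 higher, against 3.8% and 3.24% of all genes passing. Of 10 fibroblast and feeder markers 6 passed, with a mean level of 6.47 against 6.32 over the list. Differences of the 6 passing lay on both sides of 0, with 3 above and 3 below. Col1a1 (0.45) and Col1a2 (0.50) were higher by at least 0.3, and Thy1 had 0.27. Higher by 0.3 were thus 2 of 6, against 11.3% of all genes passing, and 6 genes are too few to compare with that share. Pdgfrb (-0.25), Vim (-0.10) and Col3a1 (-0.07) were below 0, while Dcn, Lum, Postn and Twist1 were below the filter on both arrays. The part of these markers in the differences of the members was not tested, and in RNA of a whole culture, fewer cells of a type and less RNA per cell cannot be told apart.

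**Figure D2:**
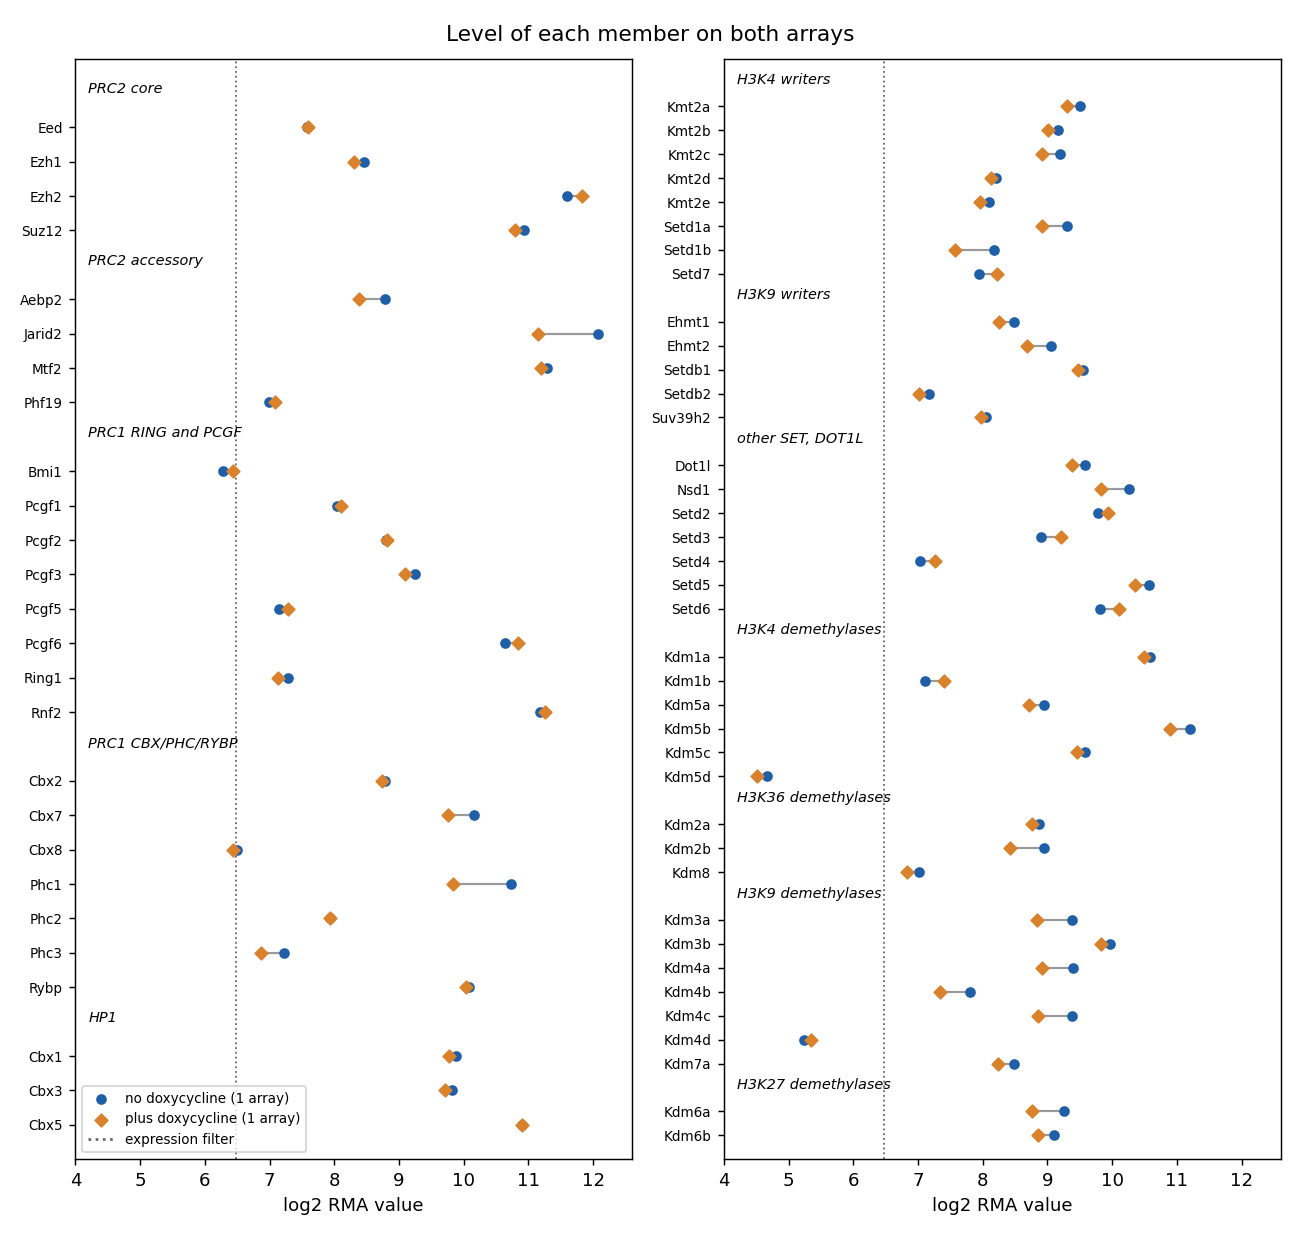
Log2 RMA value of each of the 64 members on the array without doxycycline (blue circle) and with it (orange diamond), joined by a line and grouped by role, with "writers" standing for methyltransferases. The dotted line is the expression filter at 6.48; levels of different genes come from different probes and are not compared, and the longest lines are those of Jarid2 and Phc1.

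Among the PRC2 genes, an accessory subunit differed and the core did not stand out. Jarid2 (Entrez gene 16468), which helps PRC2 find its targets in embryonic stem cells, had a level of 11.14 with doxycycline and 12.07 without, a difference of -0.93 or 1.91-fold lower. Only 112 of the 11191 genes had a lower difference. Aebp2, a zinc finger subunit, was lower by a smaller step, with levels of 8.38 and 8.78 and a difference of -0.40. Their fellow accessory subunits Mtf2 (-0.10) and Phf19 (0.09), which belong to the Polycomb-like proteins, lay close to 0. Of the core, the methyltransferase Ezh2 had levels of 11.82 and 11.59 and a difference of 0.23, whereas its paralog Ezh1 had -0.15 (8.30 against 8.46). The scaffold subunit Suz12 had levels of 10.80 and 10.92, a difference of -0.13. Eed, the subunit that reads H3K27 methylation, has a pair of probesets that differ in sign, and the brighter of them gave -0.14 at levels of 10.25 and 10.39. The dimmer gave 0.17 at 4.94 and 4.77, below the filter. The median difference of the 4 core genes was -0.06, and it ran from -0.13 with the brightest probeset of each gene to 0.00053 when the trend with expression was removed.

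The start regions of Jarid2 are shown because it had the lowest difference of all members. RefSeq lists 2 for it in assembly GRCm38.p6, each window running from 250 bases before to 50 bases after a start, at chr13:44730524-44730823 and chr13:44731021-44731320 on the + strand. The capitals mark matches, on either strand, to motifs of the induced factor families, chosen with the results known: the octamer ATGCAAAT, the SOX core AACAAT, the E-box CACGTG bound by Myc with Max, the KLF motif CCACNCCC, and the GC box CCGCCC bound by Sp and Klf proteins. The KLF motif and the GC box can overlap. In both windows the capitals are a GC box on the opposite strand.
Jarid2 start 1: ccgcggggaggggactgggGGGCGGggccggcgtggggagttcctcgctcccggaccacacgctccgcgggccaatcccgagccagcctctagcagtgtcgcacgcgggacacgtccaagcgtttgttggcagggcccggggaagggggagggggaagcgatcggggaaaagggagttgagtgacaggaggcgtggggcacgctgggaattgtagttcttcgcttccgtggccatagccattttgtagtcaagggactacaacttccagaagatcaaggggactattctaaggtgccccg
Jarid2 start 2: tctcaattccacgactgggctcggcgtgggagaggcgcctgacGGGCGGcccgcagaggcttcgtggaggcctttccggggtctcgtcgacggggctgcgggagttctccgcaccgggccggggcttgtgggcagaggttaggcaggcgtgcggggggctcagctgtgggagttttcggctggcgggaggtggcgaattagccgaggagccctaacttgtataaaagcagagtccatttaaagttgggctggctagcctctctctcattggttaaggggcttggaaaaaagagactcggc

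PRC1 showed a split between its subunits. Phc1 (Entrez gene 13619), the polyhomeotic protein that links PRC1 complexes through its SAM domain, had a level of 9.83 with doxycycline and 10.73 without, a difference of -0.90 or 1.86-fold lower, and 130 genes had a lower difference. Its paralog Phc2 had 7.94 on both arrays, and Phc3 had 6.87 and 7.22, a difference of -0.35. The family therefore ran from a near 2-fold step to none, although the differences between paralogs carry no error either. Cbx7, the chromodomain subunit known as the main Polycomb Cbx of embryonic stem cells, had levels of 9.75 and 10.17, a difference of -0.41. The other measured Polycomb readers, Cbx2 (-0.04) and Cbx8 (-0.06), lay near 0, and Cbx8 passed the filter only through the array without doxycycline (6.43 against 6.49). Cbx2 and Cbx8 are next to each other among the measured genes of chromosome 11. Rybp, a subunit of variant PRC1 without a Cbx protein, had -0.04 at 10.04 and 10.08.

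The catalytic core of PRC1 was close to level on the arrays. Its 8 RING and PCGF genes had a median of 0.07, with 0 of the 7 passing at 0.3 or beyond in either direction. Among all genes passing, 15.5% were lower and 11.3% higher by as much, and 7 genes are too few to set 0 apart from these shares. The ubiquitin ligase genes Rnf2 (11.25 against 11.18, a difference of 0.07) and Ring1 (7.14 against 7.28, a difference of -0.14) lay on opposite sides of 0. Of the PCGF partners, Pcgf6, which sits in the variant complex that silences germline genes, had the highest difference at 0.21 (10.84 against 10.63), and Pcgf3 the lowest at -0.16 (9.09 against 9.25). Pcgf1, Pcgf2 and Pcgf5 lay between 0.02 and 0.14. Bmi1, another PCGF protein, was below the filter on both arrays at 6.43 and 6.28.

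The single start region of Phc1 in RefSeq, chr6:122340178-122340477 on the - strand of GRCm38.p6, is shown for comparison with Jarid2 as the other member near 2-fold. It has no capitals, since none of the 5 motifs is in this window.
Phc1 start: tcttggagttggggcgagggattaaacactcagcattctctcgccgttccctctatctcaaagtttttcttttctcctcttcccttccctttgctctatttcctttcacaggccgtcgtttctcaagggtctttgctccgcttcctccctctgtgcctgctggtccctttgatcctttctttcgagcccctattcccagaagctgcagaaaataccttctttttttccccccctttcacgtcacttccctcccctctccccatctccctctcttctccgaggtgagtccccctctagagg

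**Figure D3:**
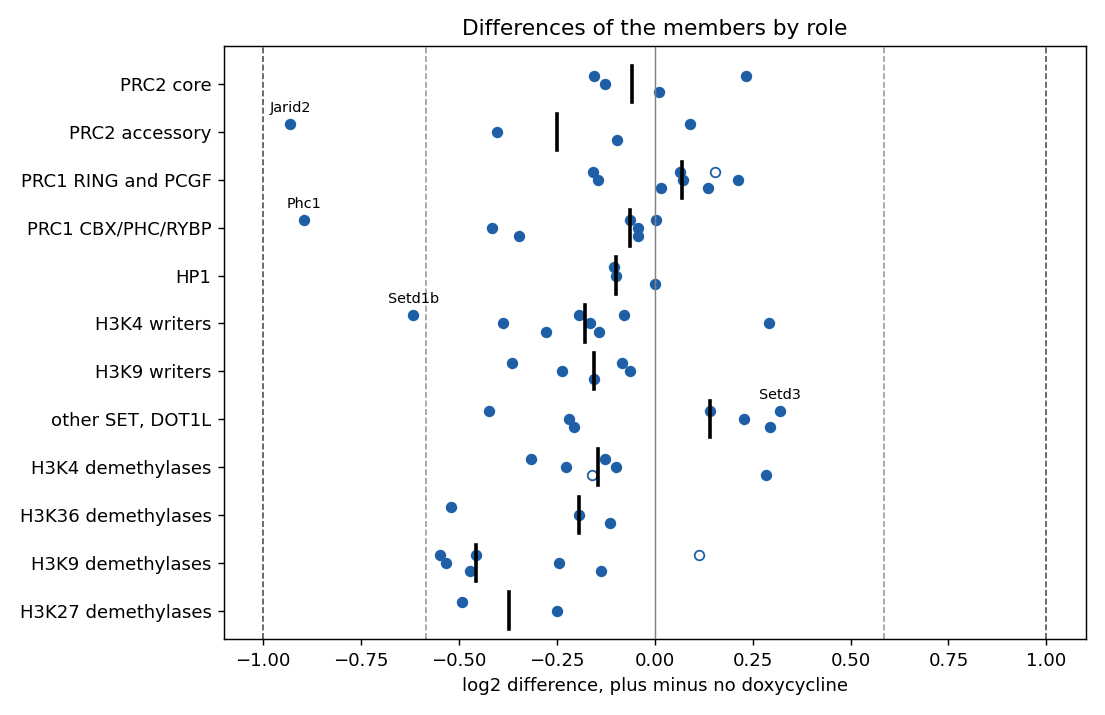
Log2 difference (plus minus no doxycycline, x axis) of the 64 members by role; filled points passed the expression filter, open points did not, and the black bar is the median of all measured genes of a role. Dashed lines mark 1.5-fold and 2-fold in either direction; Jarid2, Phc1 and Setd1b lie beyond 1.5-fold, and the H3K9 demethylases have the lowest median at -0.46.

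The HP1 genes differed little. Cbx1 had levels of 9.77 and 9.88, a difference of -0.10, and Cbx5 had 10.91 and 10.90, a difference of 0.0018. The mean of Cbx3 was -0.10, and its 7 probesets ran from -0.13 to -0.07. A pair of those probesets holds identical values on both arrays, and the mouse genome holds Cbx3 pseudogenes, so the probesets of Cbx3 are not separate measurements and its value is uncertain.

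Of the 8 genes grouped here as H3K4 methyltransferases, 7 had differences below 0, against 55.5% of all genes passing. Lower by at least 0.3 were 2 of the 8, against 15.5%. The grouping follows gene families, and activity on H3K4 was not measured. Their median was -0.18. Setd1b (Entrez gene 208043), a catalytic subunit of the complex that trimethylates H3K4 at promoters, had levels of 7.56 and 8.18, a difference of -0.62 or 1.53-fold lower. Its 2 probesets gave -0.73 and -0.51, so both were lower and only 1 of them lay beyond 1.5-fold. Setd1b was just inside that threshold and Kdm3a, at -0.55, just outside. With the expression trend removed, after quantile normalization or with an offset of 32, Setd1b had -0.54, -0.56 and -0.54 and was no longer 1.5-fold lower. Setd1a, its paralog in the same kind of complex, had 8.91 and 9.30, a difference of -0.39. The 5 Kmt2 genes, which encode the MLL proteins, ran from -0.28 for the enhancer enzyme Kmt2c (8.92 against 9.20) to -0.08 for Kmt2d (0.0021 with the expression trend removed), and none reached -0.3. Setd7, which methylates H3K4 in vitro and many other proteins, was the exception at 0.29 (8.23 against 7.94).

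All 5 measured H3K9 methyltransferases had differences below 0, against 55.5% of all genes passing, but only 1 was lower by at least 0.3, a share near the 15.5% of all genes. Ehmt2, also called G9a, which dimethylates H3K9, had levels of 8.69 and 9.05, a difference of -0.36. Its partner Ehmt1 had -0.24 (8.25 against 8.48). Setdb1, which silences retroviral elements in embryonic stem cells, had -0.08, Setdb2 had -0.15, and Suv39h2, an enzyme of pericentric heterochromatin, had -0.06 (7.98 against 8.04), a value that lay just above 0 with the trend removed (0.02) and after quantile normalization (0.00030).

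The remaining methyltransferases lay on both sides of 0, with a median of 0.14 over 7 genes. Nsd1, which dimethylates H3K36, had levels of 9.83 and 10.25, a difference of -0.42. Dot1l, the H3K79 methyltransferase, had -0.21 (9.38 against 9.58). Setd2, which trimethylates H3K36 in transcribed genes, had 0.14 (9.93 against 9.79). The highest difference of any member was that of Setd3, at 0.32 (9.21 against 8.89), and its 2 probesets gave 0.21 and 0.43. Within this role, Setd6 (0.29) and Setd4 (0.23) came next. Setd3 is known as a histidine methyltransferase of actin and Setd6 as an enzyme of proteins other than histones, so both are members by name rather than by histone activity.

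Nearly all Kdm demethylases had differences below 0, most of them small. Of the 16 that passed the filter, 15 had differences below 0 and 7 were lower by at least 0.3, with a median of -0.24 over all 18 measured, against 55.5% below 0 and 15.5% lower by 0.3 among all genes. For comparison, 13 of 22 Polycomb genes and 15 of 20 methyltransferases passing had differences below 0. None of the 16 reached 1.5-fold in either direction, against 3.24% higher and 3.8% lower among all genes passing, which is near the background.

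The demethylases of H3K9 had the lowest median of any role, -0.46 over 7 genes. Kdm3a, which removes mono- and dimethyl groups and is known to support self-renewal, had levels of 8.83 and 9.38, a difference of -0.55. Kdm4c, an enzyme for trimethylated H3K9 and H3K36 that is also known from embryonic stem cells, had 8.85 and 9.39, a difference of -0.53. Kdm4a (8.92 against 9.39) and Kdm4b (7.34 against 7.80), of the same family, had -0.47 and -0.46. These 4 genes thus lay within 0.1 of each other. The percentage of all genes passing with a still lower difference ran from 4.45% for Kdm3a to 7.02% for Kdm4b. Kdm7a had -0.24, with both probesets below 0 (-0.31 and -0.18), and Kdm3b, the paralog of Kdm3a, had -0.14 (9.83 against 9.97). Kdm4d was below the filter on both arrays (5.34 and 5.23).

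Of the demethylases of H3K27, 1 of 2 was lower by at least 0.3, against 15.5% of all genes passing, and 2 genes are too few to compare with that share. Kdm6a, an X-linked enzyme that also belongs to the Kmt2c and Kmt2d complexes, had levels of 8.77 and 9.26, a difference of -0.49. Kdm6b had 8.85 and 9.10, a difference of -0.25. For the genes grouped here as H3K36 demethylases, activity on H3K36 was likewise not measured. Of these, Kdm2b, whose zinc finger brings a variant PRC1 to CpG islands, had 8.42 and 8.94, a difference of -0.52. Its paralog Kdm2a had -0.11 and Kdm8 -0.19. In the gene order of chromosome 5, Kdm2b and Setd1b are separated by only 5 measured genes, whose differences ran from -0.37 for A930024E05Rik to 0.25 for Orai1. Both members thus had lower differences than every measured gene between them.

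Of the H3K4 demethylases, Kdm5b, which is abundant in embryonic stem cells, was lower by 0.3 or more at -0.32 (10.89 against 11.20). Kdm5a had -0.23 and Kdm5c -0.13 (9.46 against 9.59). Kdm1a, also called LSD1, had -0.10 (10.49 against 10.59), whereas its paralog Kdm1b, at 0.28 (7.40 against 7.11), was the only Kdm gene passing the filter with a difference above 0. Kdm5c and Kdm6a have Y-linked counterparts, and neither of these was above the filter. Kdm5d had 4.51 and 4.67, and Uty, outside the rule, 3.98 and 3.85. The Y-linked genes Eif2s3y (3.49 and 3.71), Usp9y (3.81 and 3.62) and Zfy1 (4.13 and 3.98), named after their values were seen, were also below the filter, as was Xist, the RNA that coats an inactive X chromosome, at 5.14 and 5.29.

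Start regions of Kdm4c and Kdm6a are shown because they are the Kdm genes with an E-box, the motif of the induced c-Myc, in a start window. RefSeq lists 2 windows for Kdm4c, and the window not shown holds none of the 5 motifs. Those shown lie at chr4:74251629-74251928 and chrX:18162325-18162624, both on the + strand of GRCm38.p6. The capitals in Kdm4c are 2 E-boxes and then 1 GC box, and those in Kdm6a are 1 GC box on the opposite strand and then 1 E-box.
Kdm4c start: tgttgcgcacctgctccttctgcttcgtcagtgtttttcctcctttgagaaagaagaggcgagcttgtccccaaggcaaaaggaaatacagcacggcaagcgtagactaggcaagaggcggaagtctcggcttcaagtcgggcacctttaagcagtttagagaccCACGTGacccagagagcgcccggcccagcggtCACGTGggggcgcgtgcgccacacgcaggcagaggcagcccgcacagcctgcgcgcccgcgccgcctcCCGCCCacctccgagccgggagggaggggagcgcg
Kdm6a start: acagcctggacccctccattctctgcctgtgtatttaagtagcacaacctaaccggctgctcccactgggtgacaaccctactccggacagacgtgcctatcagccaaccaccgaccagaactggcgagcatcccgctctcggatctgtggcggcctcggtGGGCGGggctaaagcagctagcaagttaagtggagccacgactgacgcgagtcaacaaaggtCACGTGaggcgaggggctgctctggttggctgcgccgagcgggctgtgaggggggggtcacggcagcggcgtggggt
RefSeq start windows were found for 52 of the 64 members, 70 windows in all. The E-box was in 14.3% of these and in 7.15% of all 32851 windows of the table, and the GC box in 68.6% and 35.7%. The KLF motif was in 20% against 17.6%, the SOX core in 4.29% against 10.7%, and the octamer in 1.43%, that of Phc2, against 1.74%. Windows of a gene can overlap and their base composition was not matched, so these shares are descriptions. E-boxes were also in windows of Bmi1, Cbx5, Cbx8, Ehmt2, Pcgf2, Phc2 and Phc3, whose differences ran on both sides of 0.

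**Figure D4:**
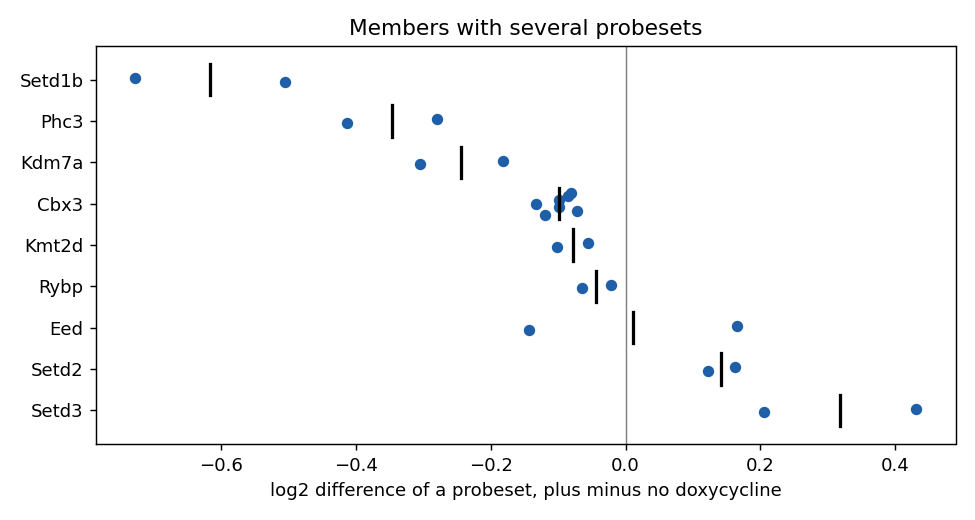
Log2 difference (plus minus no doxycycline, x axis) of each probeset of the 9 members with several probesets; the black bar is their mean, which is the value of the gene. The probesets of a gene lie on the same side of 0 except those of Eed, at -0.14 and 0.17.

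Of the 64 members, 55 have 1 probeset. For the other 9, the probesets had the same sign in 8. Across 492 genes for which a pair of probesets passed the filter, probesets of the same gene varied in their difference with an SD of 0.167, which exceeds the differences of many members and measures probes, not cultures.

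Related genes outside the rule were on 5 further lists, 4 of partners of these complexes and 1 of other lysine methyltransferases and demethylases. Of 67 listed genes 64 were measured and 58 passed the filter. Differences below 0 were found for 43 of the 58 (55.5% of all genes passing), while 18 were lower by at least 0.3 (15.5% of all genes) and 2 higher by as much (11.3% of all genes). The corepressor Rcor2, a partner of Kdm1a, was the only one at 2-fold, with 8.32 and 9.38 and a difference of -1.06, or 2.08-fold lower. Its paralog Rcor1 had -0.07. Asxl1, the partner of the H2A deubiquitinase Bap1, had 9.22 and 10.02, a difference of -0.80, whereas Bap1 itself had -0.08. Bcor, which joins Pcgf1 and Kdm2b in variant PRC1, had 6.12 and 6.79, a difference of -0.67, and passed the filter only through the array without doxycycline. Its paralog Bcorl1 had 0.45 (8.05 against 7.60). The PRC2 partner Epop, which tempers PRC2 in embryonic stem cells, was highest of the related genes at 0.48 (9.61 against 9.13), and Lcor had -0.46. Of 12 partners of the H3K4 methyltransferases, Pagr1a was lowest at -0.47 (8.57 against 9.03) and 0 were higher by 0.3. Of the partners of H3K9 silencing, all 6 measured had differences below 0, the lowest being that of the corepressor Trim28 at -0.53 (11.21 against 11.74).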

How the data were processed

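Gene expression was measured on 2 whole-transcript arrays, 1 per group. Affymetrix Expression Console and RMA made the values, per the submitters' processing notes; their versions and the build are not stated there. The authors deposited log2 values of 35556 probesets, with medians of 6.49 (plus doxycycline) and 6.47. Since RMA aligns the arrays, a shift common to most transcripts would be lost, and RMA compresses differences of dim transcripts. There is no detection call. Precision is limited by the number of arrays. The platform annotation assigned 21789 probesets to 1 gene, 1621 to several and left 12146 unlisted. All 64 member symbols were in the GRCm38.p6 gene table. Values were averaged per gene and subtracted. Members and lists were chosen with earlier results of these data known. Named are members passing the filter at 0.3 or beyond, the extremes of each role, members whose probesets differ in sign, the X and Y pairs, and from each related list the largest difference and all past 1.5-fold; others are named as paralogs or partners of these. Alternatives were other filters, removal of a loess trend (fraction 0.3), quantile normalization, an offset of 32 on the linear scale, the brightest probeset, and probesets of several genes. A check on simulated differences covered only the 2-fold call, not the averaging of probesets, the filter or the alternatives. Software was pandas 2.3.3, NumPy 2.4.6 and, for the loess trend, statsmodels 0.14.6 under Python 3.11.15, with figures by matplotlib 3.10.9.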

Additional observations from a re-analysis of the deposited data

How the results depend on the processing

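No paired analysis was possible because each group has 1 array. Under the 7 alternatives, 0 members were 2-fold different and 0 were 1.5-fold higher, while 2 or 3 were 1.5-fold lower. The median over all members ran from -0.14 to -0.11, and no member at 0.3 or beyond changed sign. With the loess trend removed, 43 of 61 members were below 0 against 49.7% of genes passing, and with the filter raised by 1, 40 of 52 against 59.3%. Of the 64 members 5 changed sign, Cbx2, Cbx5, Eed and Suv39h2 under 2 alternatives each and Kmt2d under 1, and so did the PRC2 core median under 1. No role median and no difference of the 64 members moved by more than the within-gene probeset SD of 0.167. These values were taken over all measured members, so changing the filter could not move them. Choosing the brightest probeset could change only the differences of the 9 members with several probesets. Adding probesets of several genes brought in only Cbx6. Culture-to-culture variation was not measured, and dim genes such as Bmi1, Kdm4d, Kdm5d and Cbx8 cannot be told from background.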
